A study of Mus musculus with 17 samples.

Results

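The genes of the proteasome were examined in liver and hippocampus of mice fed 4 diets. Members were all probe sets of both array types whose annotation gave a single symbol starting with Psma, Psmb, Psmc, Psmd, Psme, Psmf or Psmg. This gave 54 probe sets for 41 genes, 41 probe sets on chip A and 13 on chip B, of 13069 probe sets in all. The rule works on letters, and 3 of these probe sets belong to Psmc3ip and Psme3ip1, which are named as proteins that interact with a subunit and are not subunits themselves. Without them 51 probe sets of 39 genes remained. All 41 genes were matched to a RefSeq gene by identifier. Of the 41 genes, 13 had 2 probe sets each.

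The mice were male Rj:NMRI animals, an outbred stock, kept in cages of 10 and given purified diets from day 1, with tissues taken on day 57 or 58. The control food lacked the test oils. The other diets held 1.1% of an arachidonate-rich fungal oil, 1.9% of fish oil, or both oils at these amounts. All diets, the control included, shared the same base of palm olein, sunflower, soybean and medium-chain oils with milk fat, and the labels give a range for the medium-chain oil. For liver there were 2 control RNAs and a single RNA per oil diet, hybridised to both chips. Hippocampus gave 1 RNA of each diet, of which the RNA of both oils was analysed on chip B alone. The labels give 10 mice per diet and 5 selected for the hippocampus, and do not say how many animals 1 RNA stands for. P-values therefore reflect the spread among the RNAs measured, which could be technical, and cage and day of death cannot be told apart from diet. The array titles end differently for the 2 tissues and do not say what the ending means. Whatever it marks cannot be told apart from tissue.

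The proteasome is the barrel-shaped protease that degrades proteins tagged with ubiquitin. Its core particle is built of rings of alpha subunits, which form the gate, and rings of beta subunits, of which Psmb5, Psmb6 and Psmb7 carry the cutting sites. The regulatory particle sits on the core. Its ATPases (Psmc genes) unfold the substrate, and its other subunits (most Psmd genes) include those that bind and remove ubiquitin. In immune cells and after interferon, Psmb8, Psmb9 and Psmb10 take the places of Psmb5, Psmb6 and Psmb7, and this immunoproteasome, with the activator made of Psme1 and Psme2, favours peptides that class I molecules can present. No member probe set was annotated to Psmb5. In the classes used here the core alpha subunits had 9 probe sets of 6 genes, the constitutive core beta subunits 8 of 6, the immune subunits and activator 6 of 4 (Psmb8, Psmb9, Psmb10 and Psme1), the regulatory ATPases 6 of 6 and the regulatory non-ATPases 14 of 10. Other activators and assembly chaperones had 8 probe sets of 7 genes.

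Psmb9 and Psmb8 are neighbours on chromosome 17 in the order Psmb9, Tap1, Psmb8, Tap2, where Tap1 and Tap2 encode the transporter that carries peptides to class I molecules. The windows of 300 bases around the starts of Psmb9 and Tap1, which point away from each other, shared 275 bases. The 250 bases before the start are shown for both immune genes and for Psmb6, the constitutive subunit that Psmb9 replaces, because the tissue comparison below turns on them. The sequences are from RefSeq, build GRCm38.p6, read on the strand of the gene: Psmb9 at chr17:34187331-34187580 on the minus strand, Psmb8 at chr17:34197945-34198194 and Psmb6 at chr11:70525107-70525356, both on the plus strand. Capitals mark matches to the motifs searched in the next paragraph.
Psmb9: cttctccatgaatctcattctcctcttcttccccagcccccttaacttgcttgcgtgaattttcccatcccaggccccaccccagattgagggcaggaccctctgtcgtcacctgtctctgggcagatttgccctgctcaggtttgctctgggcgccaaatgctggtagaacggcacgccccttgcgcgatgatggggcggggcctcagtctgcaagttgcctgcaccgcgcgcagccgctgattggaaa
Psmb8: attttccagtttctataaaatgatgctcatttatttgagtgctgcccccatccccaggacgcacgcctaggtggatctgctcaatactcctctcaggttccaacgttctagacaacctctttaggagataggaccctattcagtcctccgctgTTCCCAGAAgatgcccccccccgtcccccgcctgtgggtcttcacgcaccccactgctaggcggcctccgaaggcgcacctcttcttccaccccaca
Psmb6: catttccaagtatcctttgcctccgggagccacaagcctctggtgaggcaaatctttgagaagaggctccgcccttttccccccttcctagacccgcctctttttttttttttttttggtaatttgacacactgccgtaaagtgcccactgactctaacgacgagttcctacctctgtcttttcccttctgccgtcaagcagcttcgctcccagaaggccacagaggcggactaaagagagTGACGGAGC

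A set of 3 motifs were searched on both strands in windows of 300 bases, 250 before and 50 after each start. Of the 41 genes, 35 had an entry, with 38 starts. The core of the interferon-stimulated response element, GAAA followed by any 2 bases and GAAA again, occurred at 5 of 38 starts (Psmb3, Psmd4, Psmd9, Psme1 and Psmg4), which is 13.2%, and at 3.44% of 32851 starts in all. TTCNNNGAA, the palindromic core of the gamma-activated site, was found at 3 of 38 starts (Psmb8, Psmd2 and Psmg1), or 7.89%, and at 8.30% of all. TGACNNNGC, a core of the antioxidant response element, was found at 5 of 38 starts (Psmb6, Psmc6, Psmd12, Psmd9 and Psme4), or 13.2%, and at 12.4% of all. The capitals in Psmb8 are the gamma-activated site core and those in Psmb6 the antioxidant core, and these matches do not overlap another motif. These are matches of letters in 1 window and no measure of binding.

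Deposited intensities had a trimmed mean of 146 to 149 on every array and array medians of 31 to 62, lower in liver (31 to 48) than in hippocampus (41 to 62). Values below 0.1 times the trimmed mean (14.9 on chip A and 14.7 on chip B), negative values included, were set to that floor before log2 was taken. Differences below are on this log2 scale and understate changes of dim probe sets. The labelled tissues showed their markers: 11 of 11 hepatocyte genes were higher in liver and 12 of 13 neuron genes in hippocampus. Although the labels name hepatocytes for the liver, markers of other cells were measured there, with a summed intensity of 1923 to 2782 over 13 macrophage genes against 2972 to 2988 in hippocampus, of 2721 to 3202 over 11 lymphocyte genes against 1633 to 1815, and of 1413 to 2079 over 6 endothelial genes against 562 to 747. The lymphocyte sum was carried by Ms4a1 (1432 to 1743 against 324 to 407), and without it the other 10 genes summed to 1169 to 1459 in liver and 1309 to 1408 in hippocampus. The endothelial sum was carried by Eng (899 to 1378 against 92 to 146), without which the other 5 genes summed to 429 to 701 and 416 to 602. The lower macrophage sum of liver was carried by Lyz2 (262 to 502 against 789 to 897). Without Lyz2 the other 12 genes overlapped, at 1661 to 2323 in liver and 2091 to 2183 in hippocampus. By single genes, 4 of 13 macrophage genes were higher in liver and 5 in hippocampus, 2 of 11 lymphocyte genes in liver and 1 in hippocampus, and 2 of 6 endothelial genes in liver and 0 in hippocampus. The Kupffer cell marker Clec4f was at the floor in hippocampus, and Cd79a and Ikzf1 were at the floor in liver. The ratio of 3-prime to 5-prime signal of Gapdh was 1.89 to 3.26 in liver and 0.840 to 0.947 in hippocampus, and that of actin 3.32 to 4.17 and 1.33 to 1.55. The part of these differences in any tissue result was not tested, and fewer cells of a type cannot be told apart from less RNA per cell.

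The first comparison asked how proteasome transcripts differ between liver and hippocampus over all diets. Psmb8 and Psmb9 were far higher in liver, most core alpha subunits were slightly higher there, and the regulatory particle was divided in shares near those of all probe sets. Of the 53 probe sets that could be tested, 24 were higher in liver, 11 were higher in hippocampus and 18 were not called (limma, adjusted p under 0.05 over both chips). Psmc2 read below 0 on every array and was not tested. The called share, 66% of members, stands beside 50.4% of all 11013 probe sets tested (20% higher in liver and 30.5% in hippocampus). Among probe sets at or above the median brightness of their chip, 33 of 49 members and 67% of all probe sets were called. The share is thus that of bright probe sets in general. By direction, 27.6% of such probe sets were higher in liver and 39.4% in hippocampus. The class counts below are to be read beside these shares. With at least 2-fold, 8 members were higher in liver and 6 in hippocampus, against 14.4% and 23.8% of all. Values of liver and hippocampus did not overlap for 34 of 53 members, against 53.6% of all. The latter share takes in dim probe sets and was not counted for the brighter ones alone. Without the fungal oil RNA of either tissue the liver count was 15, and without the fish oil RNA of either tissue the hippocampus count was 7. Compared within diets, 30 of 54 members were higher in liver for every diet measured in both tissues and 15 were higher in hippocampus. Another 8 were mixed and 1, Psmc2, was at the floor. The same was not counted over all probe sets, so these counts describe the members alone.

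**Figure D1:**
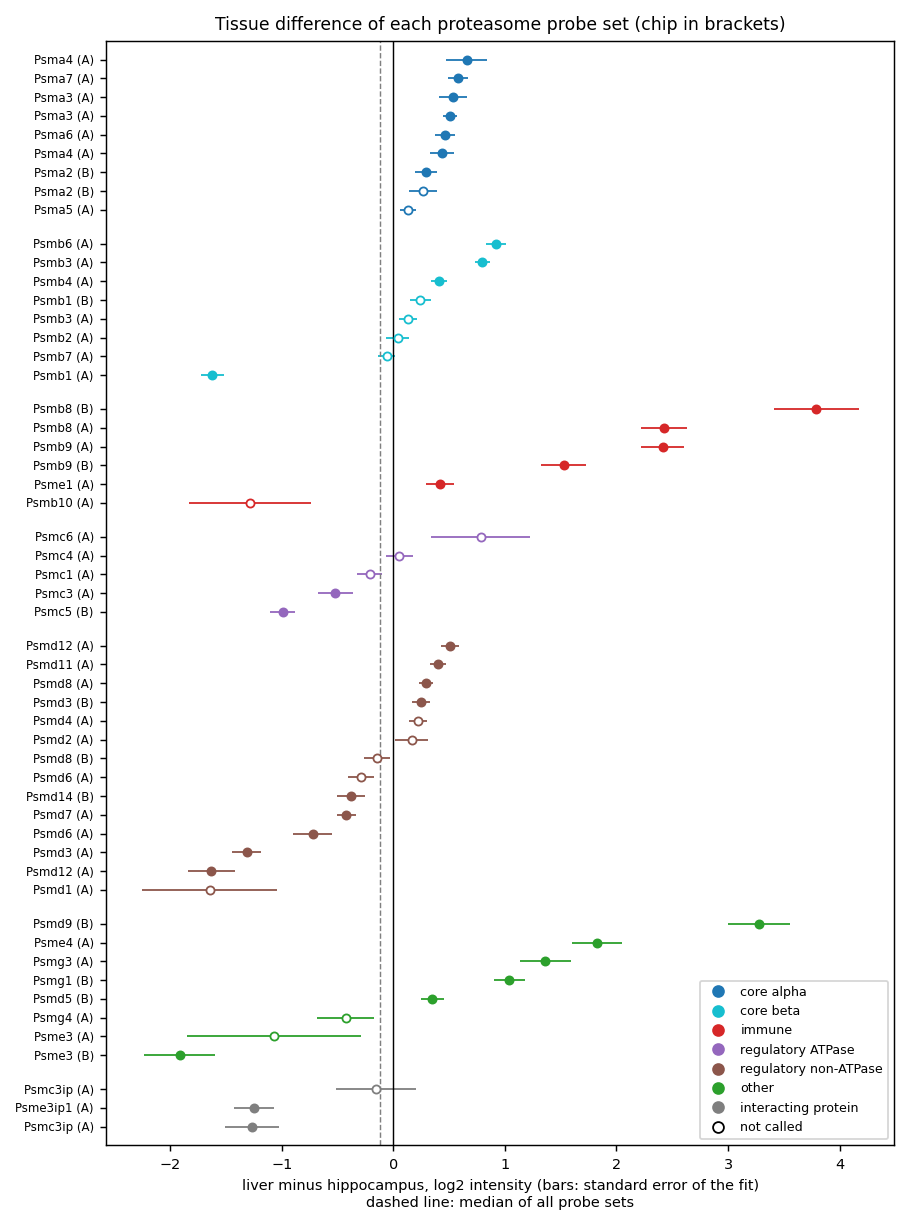
Liver minus hippocampus log2 intensity of the 53 tested proteasome probe sets, grouped by class, with the standard error of the fit as bars and open points for probe sets not called; the dashed line is the median of all probe sets (-0.12). The 4 probe sets of Psmb8 and Psmb9 lie between 1.53 and 3.79, while the core alpha subunits lie between 0.13 and 0.66.

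The core alpha subunits differed little but in 1 direction. All 9 probe sets lay above 0, and 7 were called higher in liver and 0 in hippocampus. Those of Psma2, Psma3 and Psma5 and the dimmer of Psma4 are family probe sets, which can bind related sequences. Psma7, an alpha ring subunit, read 388 and 413 in the liver controls and 478, 420 and 451 with fungal oil, fish oil and both oils. In hippocampus Psma7 read 255 in the control, 299 with fungal oil and 331 with fish oil, below every liver RNA. The difference was 0.58 (SE 0.09, adjusted p = 0.00509). Psma3, an alpha ring subunit whose brighter probe set read 526 to 597 in liver and 392 to 443 in hippocampus, differed by 0.51 (SE 0.06, adjusted p = 0.00213), and its dimmer probe set by 0.53 (SE 0.13). Psma6 differed by 0.46 (SE 0.09), the probe sets of Psma4 by 0.66 (SE 0.18) and 0.44 (SE 0.11), and those of Psma2 by 0.29 (SE 0.10, called) and 0.27 (SE 0.12, adjusted p = 0.120). Psma5 was not called (0.13, SE 0.07, adjusted p = 0.199). Leaving out the hippocampus RNA of fungal oil removed the calls of both Psma4 probe sets, of Psma6, of the dimmer Psma3 probe set and of Psma2, whereas Psma7 and the brighter Psma3 probe set stayed called under all 17 alternatives.

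The constitutive beta subunits were less uniform. Psmb6, which carries the site that cuts after acidic residues, read 1135, 1068, 1271, 1341 and 1091 in liver (controls, fungal oil, fish oil, both oils) and 664, 657 and 626 in hippocampus (control, fungal oil, fish oil). Its difference of 0.92 (SE 0.09, adjusted p = 0.000911), 1.89-fold, was the largest among core beta probe sets higher in liver. Psmb7, which carries the site that cuts after basic residues, read 377 to 512 in liver and 447 to 525 in hippocampus, with overlapping groups and a difference of -0.06 (SE 0.08, adjusted p = 0.561). The non-catalytic subunit Psmb3 was called at its brighter probe set (0.80, SE 0.07; 1048 to 1193 against 650 to 660) and not at the dimmer (0.13, SE 0.08). Psmb4, also non-catalytic, differed by 0.41 (SE 0.07, adjusted p = 0.00709), which quantile normalization reduced to 0.05 and no call. Psmb2 read 319 to 399 in liver and 343 to 378 in hippocampus and was not called (0.04, SE 0.10). In total 3 of 8 core beta probe sets were higher in liver and 1 in hippocampus.

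Among the immune subunits, Psmb8 and Psmb9 gave the largest tissue differences of any catalytic subunit measured. Psmb8 on chip B read 442 and 440 in the liver controls, 342 with fungal oil, 225 with fish oil and 343 with both oils. In hippocampus it read 18 in the control, 9 with fungal oil, 28 with fish oil and 55 with both oils. Every liver RNA was at least 4 times brighter than any hippocampus RNA, with means of 358 ± 89.4 (SD, n = 5) and 27.5 ± 19.9 (SD, n = 4) and a log2 difference of 3.79 (SE 0.38, adjusted p = 0.000259). Because the hippocampus values lie near the floor, this size depends on it, from 3.07 to 4.15 over the 17 alternatives. On chip A a separate probe set of Psmb8 read 169 to 269 in liver and 34, 38 and 47 in hippocampus, a difference of 2.43 (SE 0.21, adjusted p = 0.000582).

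Psmb9 on chip B read 365 and 352 in the liver controls and 287, 217 and 316 with fungal oil, fish oil and both oils. Its hippocampus values were 84 in the control, 145 with fungal oil, 79 with fish oil and 130 with both oils, again without overlap. The difference was 1.53 (SE 0.20, adjusted p = 0.000954). The chip A probe set read 69 to 90 in liver and below 0 in all 3 hippocampus RNAs (-119, -77 and -110), so that Psmb9 was at least 5.34-fold higher in liver by that probe set (adjusted p = 0.000462). Both Psmb9 probe sets are family probe sets, which can bind related sequences. That of chip A also lies below the median brightness of its chip. In all, 10 members are of the family type. The others are both probe sets of Psma2 and of Psma3, the dimmer of Psma4, the brighter of Psmb1, and those of Psma5 and Psmc3. All 4 probe sets of Psmb8 and Psmb9 stayed called under every alternative in which they were tested.

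The other members of the immune class did not share that size. Psme1, a subunit of the interferon-inducible activator, read 286, 251, 269, 331 and 305 in liver and 239, 196 and 208 in hippocampus. Its difference of 0.42 (SE 0.13, adjusted p = 0.0466) was lost under 7 of 17 alternatives. Psmb10 was dim and scattered in liver, at 48 and 43 in the controls, 91 with fungal oil, 2 with fish oil and 28 with both oils. In hippocampus it read 132, 73 and 89, which overlapped the fungal oil RNA of liver, and the difference of -1.28 (SE 0.55) was not called (adjusted p = 0.115). Of the 6 immune probe sets 5 were thus higher in liver and 0 in hippocampus, and the class median was 1.96, beside -0.12 for all probe sets. This median counts Psmb8 and Psmb9 at both of their probe sets, so it describes mainly these genes and not the class. The lymphocyte and endothelial marker sums given above were also higher in liver, each through 1 gene (Ms4a1 and Eng), and 8 of 11 lymphocyte genes and 4 of 6 endothelial genes were not called. The macrophage sum was lower in liver through Lyz2, and the other 12 macrophage genes overlapped in sum (1661 to 2323 against 2091 to 2183). The part of these cells in the immune class was not tested.

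**Figure D2:**
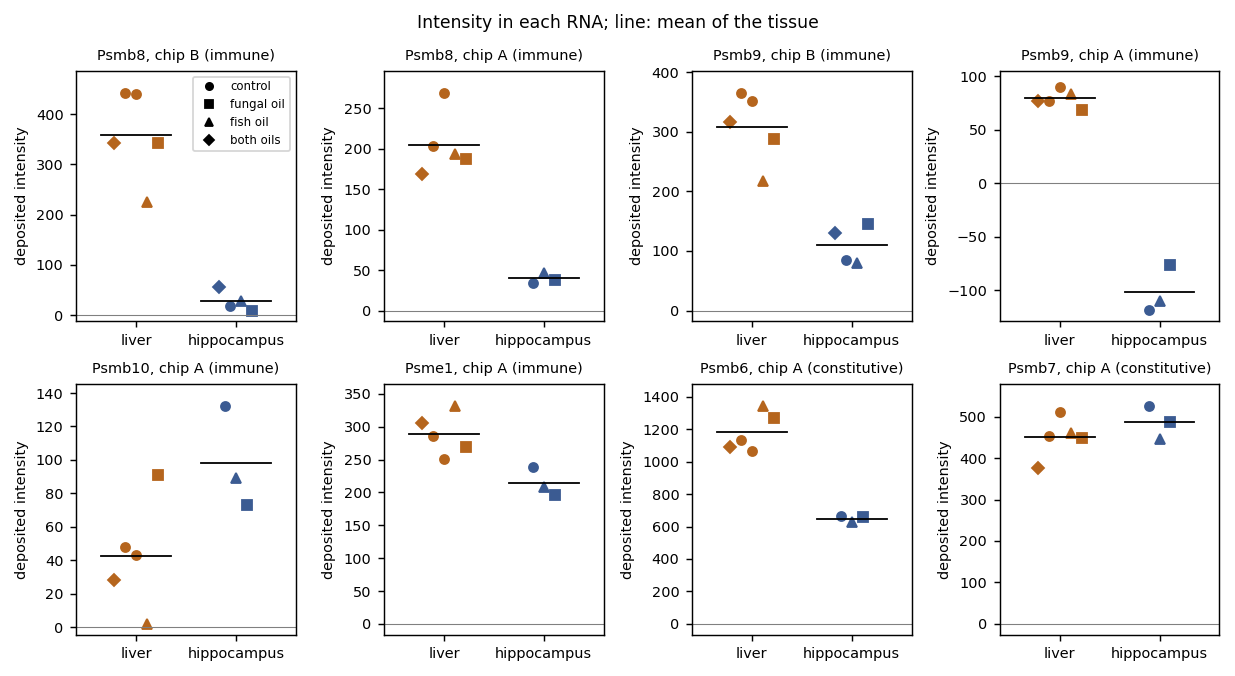
Deposited intensity of the immune members and of 2 constitutive catalytic subunits in each RNA, by tissue, with 1 symbol per diet and a line at the tissue mean; each panel has its own linear axis. Psmb8 and Psmb9 do not overlap between tissues, Psmb10 does, and Psmb9 on chip A is below 0 in every hippocampus RNA.

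The immune subunits were also set against the constitutive subunits they replace, within each RNA. The log2 ratio of Psmb9 to Psmb6 averaged -1.95 ± 0.43 (SD, n = 5) in liver and -2.72 ± 0.46 (SD, n = 3) in hippocampus. A ratio of 2 probe sets has no meaning as a level, and only its difference between tissues, 0.77, was compared. It did not pass an exact two-sided permutation test over the 56 assignments of tissue labels (p = 0.0714, adjusted over 2 pairs 0.107, smallest possible p 0.0357). The fungal oil RNAs of both tissues were close, at -2.14 in liver and -2.19 in hippocampus, and the fish oil liver RNA was at -2.62. The ratio uses Psmb9 of chip B and Psmb6 of chip A. With the mean over both Psmb9 probe sets the difference was 1.16 and with quantile normalization 1.23. Each had the smallest p the exact test can give (0.0357), which adjusted over the 2 pairs is 0.0714. After this adjustment a pair can pass only if the other pair also has the smallest p, which Psmb10 to Psmb7 did not have in these settings. The adjusted test could thus not pass for Psmb9 to Psmb6 at any size of difference, and nothing is concluded from it. Psmb10 to Psmb7 differed by -1.21 (exact p = 0.107), from -1.53 to -0.86 when each RNA was left out in turn.

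In the regulatory particle 4 of 19 tested probe sets were higher in liver and 7 in hippocampus. Of all probe sets tested 20% and 30.5% were called in these directions, and 27.6% and 39.4% of the brighter ones. The split is thus near that of probe sets in general. Psmc5, an ATPase of the base, read 723, 845, 542, 625 and 775 in liver and 1564, 1298, 1363 and 1236 in hippocampus. All hippocampus RNAs lay above all liver RNAs, and the difference was -0.99 (SE 0.11, adjusted p = 0.000460), which kept its direction and call under all 17 alternatives. The other ATPase called, Psmc3 (43 to 74 against 80 to 110; -0.52, SE 0.16, adjusted p = 0.0455), lost its call under 12 of 17 alternatives. Psmc4 (0.05, SE 0.12) and Psmc1 (-0.21, SE 0.11) were not called, and Psmc6 read between -6 and 49 in all RNAs. For the ATPases 0 of 5 tested probe sets were thus higher in liver and 2 in hippocampus.

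The non-ATPases went both ways, with 4 of 14 probe sets higher in liver and 5 in hippocampus. This is near the shares of bright probe sets in general (27.6% and 39.4%). Psmd11, a lid subunit, read 711, 645, 599, 609 and 673 in liver and 502, 491 and 454 in hippocampus, a difference of 0.40 (SE 0.07, adjusted p = 0.00728) that stayed called under all 17 alternatives. Psmd7, the partner of the deubiquitinating subunit, was lower in every liver RNA (316 to 392) than in any hippocampus RNA (471 to 497), by -0.42 (SE 0.09, adjusted p = 0.0135), but scaling to the median left -0.06 and no call. Psmd14, the deubiquitinating subunit itself, read 271 to 350 in liver and 316 to 490 in hippocampus and had a difference of -0.38 (SE 0.13, adjusted p = 0.0453), which scaling to the median turned to 0.05. Psmd6, a lid subunit, was called at its dimmer probe set, which read 123, 155, 150, 122 and 133 in liver and 184, 262 and 261 in hippocampus, without overlap (-0.72, SE 0.18, adjusted p = 0.0232, lost under 7 of 17 alternatives). Its brighter probe set had the same sign and was not called (-0.29, SE 0.12, adjusted p = 0.10). Psmd4, a ubiquitin receptor (0.22, SE 0.08), and Psmd2, a scaffold of the base (0.16, SE 0.15), were not called. Psmd1, the other large scaffold, read 18 and 91 in the 2 liver controls and 132 to 229 in hippocampus (-1.64, SE 0.61, adjusted p = 0.0790), and 6 of 14 non-ATPase probe sets lay above 0 in all.

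Activators and assembly chaperones held the largest differences outside the immune class. Psmd9, a chaperone for assembly of the ATPase ring, read 178, 150, 129, 153 and 184 in liver. In hippocampus it read -2, 23, 14 and -1, so 3 of 4 values were at the floor and the difference of 3.28 (SE 0.28, adjusted p = 0.000122) depends on it, from 2.10 to 3.83 over the alternatives. Psme4, a large activator of the core, read 210 to 445 in liver and 78, 94 and 94 in hippocampus (1.82, SE 0.23, adjusted p = 0.00215). Psmg1 and Psmg3, chaperones of core assembly, were higher in liver by 1.04 (SE 0.14) and 1.36 (SE 0.23), and Psmg4 was not called (-0.43, SE 0.26). Psmd5, another ATPase chaperone, was called at 0.35 (SE 0.10) and lost that call under 9 of 17 alternatives.

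Psme3, the nuclear activator, went the other way. On chip B Psme3 read 15, 31, 20, 4 and 26 in liver and 81, 87, 71 and 71 in hippocampus (-1.91, SE 0.32, adjusted p = 0.00256). On chip A a brighter Psme3 probe set read 134 to 143 in hippocampus and 8 to 106 in liver, where the 2 controls alone read 106 and 8, and was not called (-1.07, SE 0.78, adjusted p = 0.310). Of the 8 probe sets in this class, 5 were higher in liver and 1 in hippocampus. The 2 genes named for interaction with a subunit were higher in hippocampus: Psme3ip1 (50 to 67 against 116 to 142, a log2 difference of -1.25, SE 0.18) and Psmc3ip, a recombination factor, at 1 of its 2 probe sets (-1.27, SE 0.24, and -0.16, SE 0.36).

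Where a gene had 2 probe sets, these could disagree. Of 13 such genes 9 gave the same sign and 4 opposite signs (Psmb1, Psmd3, Psmd8 and Psmd12). For Psmd12 and Psmd3, both lid subunits, both probe sets were called, in opposite directions. Psmd12 read 346 to 421 in liver and 258 to 266 in hippocampus at its brighter probe set (0.51, SE 0.08), but 20 to 33 against 76 to 113 at the dimmer (-1.63, SE 0.21). Psmd3 read 1094 to 1286 against 986 to 1170 on chip B (0.25, SE 0.08, a call lost under 10 of 17 alternatives), but 84 to 112 against 230 to 268 on chip A (-1.31, SE 0.13). Psmb1, a non-catalytic beta subunit, read 1266 to 1527 against 1091 to 1364 at a family probe set on chip B (0.24, SE 0.09, not called) and 88 to 95 against 260 to 307 on chip A (-1.62, SE 0.10). Psmd8, also a lid subunit, read 425 to 525 against 352 to 414 on chip A (0.29, SE 0.07, adjusted p = 0.0180, lost under 6 of 17 alternatives) and 359 to 538 against 427 to 510 on chip B, where the groups overlapped and it was not called (-0.14, SE 0.12). In Psmd12, Psmd3 and Psmb1 the brighter probe set read higher in liver and the dimmer higher in hippocampus. The tissue direction of these genes is therefore not settled by these arrays.

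**Figure D3:**
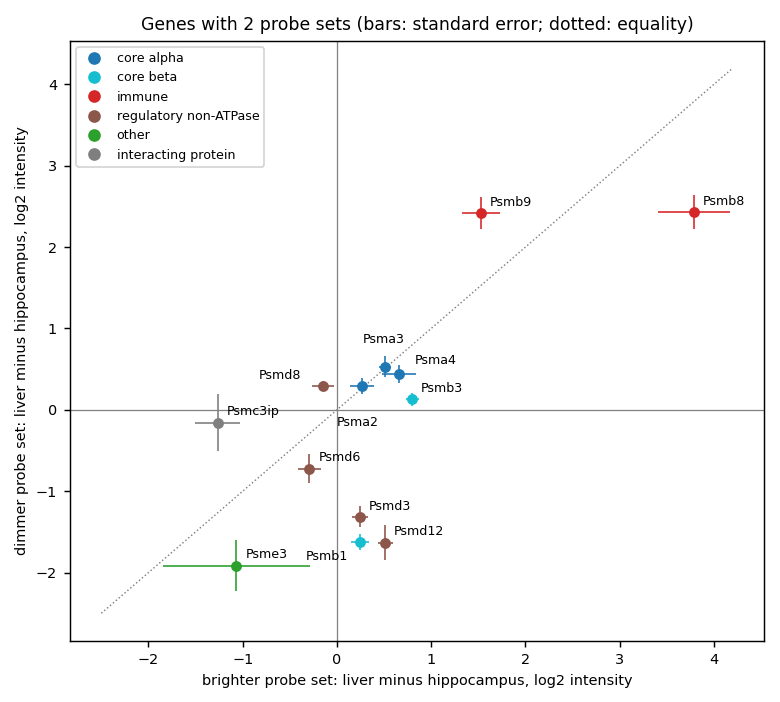
Tissue difference of the brighter (horizontal) against the dimmer (vertical) probe set of the 13 genes with 2 probe sets, log2 liver minus hippocampus, with standard errors as bars. Psmb8 and Psmb9 are positive on both axes, and Psmb1, Psmd3 and Psmd12 lie in the lower right, positive for the brighter and negative for the dimmer probe set.

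The split of calls depends on how the tissues are scaled to each other. With every array at the same trimmed mean the median difference of all probe sets was -0.12, with quantile normalization 0.05 and with the same array median 0.12. The 24 calls higher in liver and 11 higher in hippocampus became 25 and 8 with quantile normalization and 33 and 7 with the same median. Relative to the median of all probe sets, the core alpha median was 0.61, 0.52 and 0.74 under the 3 scalings, in that order. The core beta median was 0.31, 0.06 and 0.48, and the immune median 2.07, 2.15 and 2.15. The ATPase median was 0.01, -0.06 and -0.04, and the non-ATPase median -0.12, -0.10 and 0.06. The core alpha, core beta and immune classes thus stayed above the median of all probe sets under each scaling, while the non-ATPase class changed side. The immune median rests mainly on Psmb8 and Psmb9, each counted at both of its probe sets. The ATPase median counts Psmc2, at the floor on every array, as a difference of 0, so its side is not read. Of the 5 tested ATPase probe sets 2, 2 and 3 lay above 0 under the 3 scalings.

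**Figure D4:**
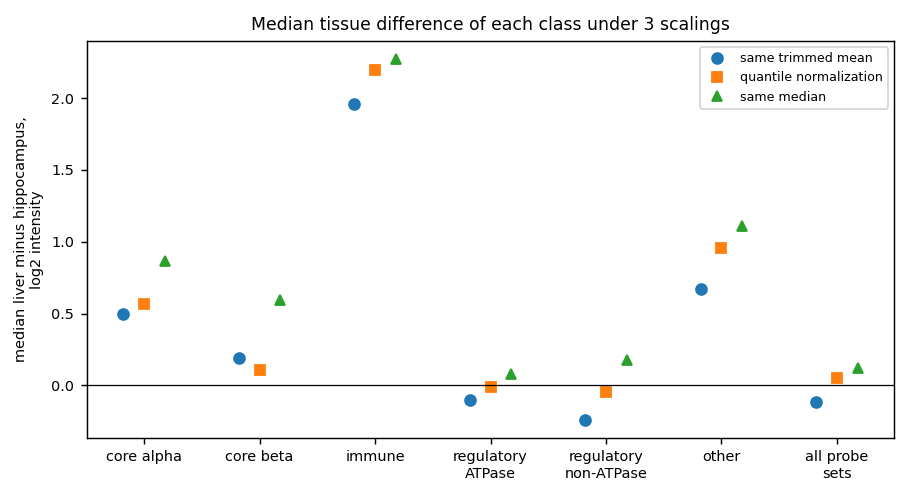
Median tissue difference of each class, log2 liver minus hippocampus, under 3 scalings of the arrays, with all probe sets at the right. The immune class, whose median rests mainly on both probe sets of Psmb8 and of Psmb9, lies between 1.96 and 2.27. The core alpha class lies between 0.49 and 0.86. The ATPases move from -0.11 to 0.08 and the non-ATPases from -0.24 to 0.18. The ATPase median counts Psmc2, at the floor on every array, as 0.

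Genes that work with the proteasome were counted in the same fit, each by its brightest probe set, beside 1240 of 5508 genes higher in liver and 1776 higher in hippocampus. Of 36 measured genes of class I antigen processing and the interferon response, 18 were higher in liver and 1 in hippocampus, with a median of 0.55. The 4 with the largest difference were all higher in liver. Iigp1, an interferon-induced GTPase, read 1031 to 1489 in liver and -68.6 to -13.9 in hippocampus after scaling. B2m, the light chain of class I molecules, differed by 4.69 (SE 0.10), and the class I heavy chains H2-D1 and H2-Q10 by 4.12 (SE 0.07) and 3.72 (SE 0.11). Outside these 4, the transporter genes beside Psmb9 and Psmb8 and a regulator were read, chosen with their values known. The transporter gene Tap1, neighbour of Psmb9, read 52.2 to 73.2 in liver and -11.9 to -4.97 in hippocampus after scaling, and Tap2 read 23.2 to 91.7 and -128 to -65.3. Irf1, an interferon-regulated activator of class I genes, was not called (0.10, SE 0.11, adjusted p = 0.497).

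Of 16 partners without the Psm prefix, 4 were higher in liver and 6 in hippocampus, with a median of -0.10. Ubqln2, a shuttle that brings ubiquitin-tagged proteins to the proteasome, was higher in hippocampus (log2 difference -3.56, SE 0.10), as were Zfand2a, a stress-induced protein that binds the proteasome (-2.90, SE 0.20), and Usp14, a deubiquitinase bound to the regulatory particle (-2.88, SE 0.19). The stress factor Nfe2l2 was higher in liver (2.54, SE 0.22). Nfe2l1, the factor known for restoring proteasome genes after inhibition and also chosen with its value known, was not called (-0.26, SE 0.11, adjusted p = 0.0891). Of 14 ubiquitin conjugating enzymes, 3 were higher in liver and 8 in hippocampus, with a median of -0.71. Ube2l6, an interferon-induced enzyme, had the largest difference and was higher in liver (2.59, SE 0.22). Next in size were Ube2o (-2.53, SE 0.27), Ube2v2 (-2.20, SE 0.25) and Ube2d3 (-2.00, SE 0.19), all higher in hippocampus.

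The second comparison asked whether the oils altered proteasome transcripts in liver. No member was called for any diet. In the fit of 4 diet groups 49 members at or above the median brightness were tested, and 0 were called for fungal oil, fish oil, both oils, fungal against fish oil or the interaction of the oils, where 0% of 6537 probe sets were called in each. This background rests on the filter: among the brightest 3269 probe sets 26, 39 and 37 were called for fungal oil, fish oil and both oils, and with no filter 337 and 501 of 10052 for fungal against fish oil and the interaction, with 0 of 37 and 0 of 53 members. Members with an unadjusted p under 0.05 numbered 1, 5, 1, 3 and 5 for these contrasts, beside 9.16%, 11.1%, 9.90%, 9.01% and 9.27% of all probe sets. When the 3 oil RNAs formed 1 group against the 2 controls, 0 members were called, beside 0.0612% of all, and 3 had an unadjusted p under 0.05, beside 8.2% of all. The control group is the only one with 2 RNAs, and its members differed between these RNAs by a median size of 0.16 for chip A and 0.15 for chip B.

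Over all 54 members the median difference from the control mean was -0.06 with fungal oil, 0.00 with fish oil and -0.00 with both oils, beside -0.01, 0 and 0 over all probe sets. For the core alpha subunits these medians were 0.04, 0.07 and 0.17. With both oils 7 of 9 of these probe sets lay above the control mean, beside 4871 of 10052 over all probe sets. For the core beta subunits they were -0.03, 0.04 and -0.03. The ATPases had -0.16, 0.08 and 0.00, and the non-ATPases -0.11, -0.02 and -0.01. The immune class had -0.30, -0.50 and -0.27, and the controls differed by 0.03 in the median of that class. Of its 6 probe sets 4, 4 and 5 lay below the control mean, beside 5087, 4926 and 4661 of 10052 over all probe sets. Psmb8 and Psmb9 enter these counts with both of their probe sets.

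Psmb8 on chip B was the member with the lowest adjusted p for fish oil. It read 442 and 440 in the controls and 225 with fish oil, a difference of -0.97 (SE 0.16, adjusted p = 0.383), and 342 and 343 with fungal oil and both oils (-0.37 and -0.36). On chip B the fish oil array of liver had a Gapdh 3-prime to 5-prime ratio of 3.26, against 1.92 to 2.51 on the other liver arrays of that chip and 1.95 for the same RNA on chip A, while its actin ratio of 3.33 lay within the range of the others. The part of this in the fish oil values of Psmb8 and Psmb9 was not tested. On chip A Psmb8 read 204 and 269 in the controls and 187, 193 and 169 with the oils (-0.33, -0.28 and -0.47). The controls themselves differed there by 0.40. Psmb9 on chip B read 365 and 352 in the controls and 287, 217 and 316 (-0.32, -0.72 and -0.18), with an adjusted p of 0.417 for fish oil. These 3 probe sets were below both controls in each of the 3 oil RNAs. The chip A probe set of Psmb9, at 77 and 90 in the controls and 69, 84 and 77, did not repeat this. Psme1 read 286 and 251 against 269, 331 and 305, and Psmb10 read 2 with fish oil and 91 with fungal oil around controls of 48 and 43.

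Of the 49 brighter members, 7 lay below both controls in each of the 3 oil RNAs and 6 above both, beside 11.9% and 12.5% of all probe sets of that brightness. The other members below both controls were Psma3, Psmb3, Psmg3 and Psmd3, each at 1 of its probe sets where there were 2. Those above were, likewise, Psma2, Psma6, Psma7, Psmg1, Psmd6 and Psmd8. The sum of 13 macrophage genes was 2782 and 2699 in the liver controls and 1923, 2193 and 2195 with fungal oil, fish oil and both oils, and it moved in the same direction as Psmb8 and Psmb9. So did other markers: the sum of 6 endothelial genes was 2079 and 1823 in the controls and 1497, 1413 and 1610 with the oils, while that of 11 lymphocyte genes overlapped (3202 and 2721 against 2970, 2827 and 2782). At or above the median brightness, 5 of 12 macrophage genes, 3 of 5 endothelial genes and 2 of 7 lymphocyte genes were below both controls in every oil RNA, beside 13.3% of all genes. Of the 26 class I and interferon genes of that brightness, 2 were below both controls in every oil RNA and 1 above, and H2-D1 read 6396 and 5798 in the controls and 5558 to 6148 with the oils. The part of these cell types in the Psmb8 and Psmb9 values was not tested.

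Of the 49 brighter members, 0 were at least 1.5-fold from each control with fungal oil, 3 with fish oil and 2 with both oils. Of all probe sets of that brightness 12.2%, 14.3% and 13.8% were. The 3 with fish oil were Psmb8 and Psmb9 on chip B, both lower, and a probe set of Psmc3ip, higher (41 and 44 to 69). Both probe sets with both oils were those of Psmc3ip (36 and 52 to 80, and 41 and 44 to 77). Over all 54 members, 1 was that far higher with fungal oil. With fish oil 1 was higher and 4 lower, and with both oils 2 were higher and 1 lower. The dimmer ones were Psmb10, with every diet, and a probe set of Psmd12, with fish oil. Psma4 had the lowest unadjusted p for both oils: 1 probe set read 505 and 512 in the controls and 722 with both oils and 734 with fish oil (0.51 and 0.53, SE 0.10, adjusted p = 0.432 and 0.386). Its other probe set read 420 and 375 in the controls and 534 and 316, so the 2 probe sets disagreed for fish oil. Psmc5, the member with the lowest p for fungal oil, read 723 and 845 in the controls and 542 (-0.53, SE 0.17, adjusted p = 0.545).

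**Figure D5:**
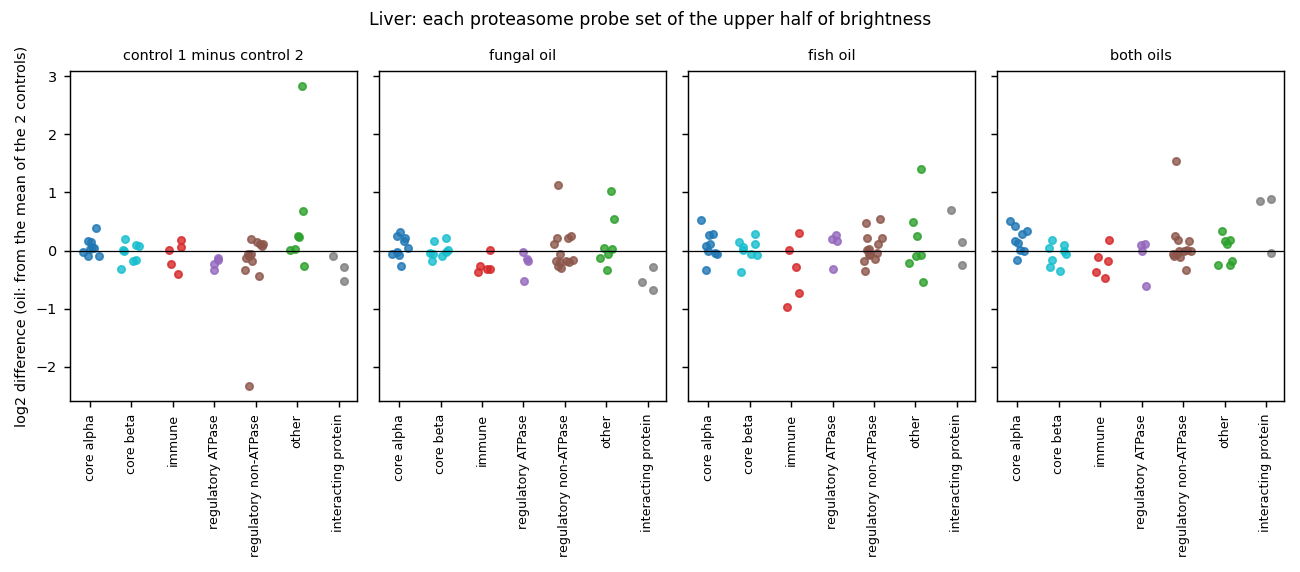
Log2 difference of each of the 49 brighter proteasome probe sets in liver, by class: the left panel sets control 1 against control 2, and the others set each oil RNA against the mean of both controls. Psme3 (2.84) and Psmd1 (-2.34), both of chip A, differ most between the controls, and the 2 lowest with fish oil are Psmb8 (-0.97) and Psmb9 (-0.72) of chip B.

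In hippocampus each diet had 1 RNA, so differences from the control array have no replicate check. With fungal oil the median over 54 members was -0.05, with fish oil -0.05, and with both oils 0 over the 13 members of chip B. Among the 46 members at or above the median brightness, 2 were at least 1.5-fold higher and 3 lower with fungal oil, beside 14.2% of probe sets of that brightness in either direction. Those higher were Psmb9 on chip B (84 to 145, log2 difference 0.79) and Psmd1 (132 to 229, 0.79), and those lower were Psmb10 (132 to 73, -0.85), Psmg4 (120 to 78, -0.62) and a probe set of Psma3 (255 to 168, -0.60). With fish oil 0 were at that distance, beside 15% of all. With both oils, on chip B alone, Psmb9 was higher (84 to 130, 0.63) and Psmd14 lower (490 to 316, -0.63), beside 15.9% of all. Psmb8 on chip B was below the median brightness and read 18 in the control, 9 with fungal oil, 28 with fish oil and 55 with both oils. An additive limma fit of the oils on chip B, with 1 residual degree of freedom, called 0 of 11 members for either oil, beside 0% of all 3273 probe sets, and 2 members had an unadjusted p under 0.05 for fungal oil and 0 for fish oil.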

How the data were processed

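For each of 17 arrays of 9 RNAs the authors deposited whole-number intensities, some negative. The software, background method and scaling behind them were not given in the sources used here. The common trimmed mean (2% at each end) was measured from the values. Probe sets were named from the platform annotation, which gave 1 symbol to 5541 of 6529 on chip A and 2001 of 6540 on chip B, with several symbols for 197 and 27. Of the members' letters, 1 probe set with 2 symbols was left out. The 55 control probe sets per chip entered no test.

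Intensities were floored at 0.1 times the trimmed mean and turned to log2. Tissues were compared with limma (3.58.1, R 4.3.3) as tissue plus diet over all arrays, scaled to the same trimmed mean, with an intensity trend, per chip, and Benjamini-Hochberg adjustment over both chips together. A call was an adjusted p under 0.05. Probe sets at the floor everywhere were not tested, and a gene at the floor throughout 1 tissue has only a bound, the other tissue's mean over the floor. Liver diets were fitted as 4 groups with 1 residual degree of freedom, or as any oil against control with 3, over probe sets at or above the chip's median brightness. Class medians are medians over probe sets of the difference of tissue means and carry no test, since subunits are not replicates. Members at the floor on every array compared, such as Psmc2 among the ATPases, enter these and the diet medians as 0. The number of arrays, and signal over background, limit the precision. Each fit was also run on simulated data with differences planted in independent normal noise. The outcome is not given here and is no support for the calls. Alternatives were other scalings, floors, filters and fits, diet as a block, and leaving out each RNA.

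The members, gene lists and tests were chosen with earlier results of these data known. Every member was counted; those described are the members called between tissues, the immune and constitutive partners, the largest diet differences, genes whose probe sets disagree and, per list, up to 4 genes with the largest tissue difference, beside Tap1, Tap2, Irf1 and Nfe2l1, chosen with their values known.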

Additional observations from a re-analysis of the deposited data

Results flagged for a closer look

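In 66 sets of a member and a tissue, the highest or lowest RNA was compared with the rest by Dixon's ratio of its gap to the range. Chance flags about 1 in 20 such sets, and 3 were found. Psma5 read 433 in the liver RNA of both oils and 328 to 355 in the other liver RNAs (ratio 0.719). Psmd3 on chip B read 1170 in the hippocampus RNA of fish oil and 986 to 1007 in the others (0.889). Psmd9 read 23 in the hippocampus RNA of fungal oil and -2 to 14 in the others, which are at the floor (1.00).

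A pair of members moved in opposite directions with the oils in the tissues, with every oil RNA of liver above both controls and every oil RNA of hippocampus below its control. They were Psmd6 at its brighter probe set, where the mean effect differed by 0.40 on the log2 scale (liver minus hippocampus), and Psma2 at 1 of its probe sets, where it differed by 0.33. Of 43 members at or above the median brightness in both tissues these 2 are 4.65%, beside 3.96% of all 5181 such probe sets, and hippocampus has a single control. These differences between tissues were not tested.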

How the results depend on the processing

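The count of 24 members higher in liver lay between 15 (without the fungal oil RNA of hippocampus, or of liver) and 23 when an RNA was left out, and that of 11 higher in hippocampus between 7 (without the fish oil RNA of hippocampus, or of liver) and 11. Of the called members 14 and 6 stayed called under every alternative in which they were tested. With the same array median the hippocampus count was 7, Psmb7 turned to 0.30 and Psmd14 to 0.054, and the class medians were 0.86 for core alpha, 0.60 for core beta, 1.11 for the other activators and chaperones, 0.65 for all members, 0.079 for ATPases and 0.18 for non-ATPases, the last 2 reversed. Quantile normalization gave 0.11 for core beta, 0.95 for the other activators and chaperones, -0.013 for ATPases and -0.047 for non-ATPases. The ATPase medians count the untested Psmc2 as 0. The immune median was 1.32 with 2.5 times the floor, since its hippocampus values lie near it. The ratio of Psmb9 to Psmb6, adjusted over 2 pairs, passed under none of the alternatives run. With all RNAs it could not pass after adjustment, because Psmb10 to Psmb7 did not have the smallest p. Without each RNA the difference of the Psmb9 to Psmb6 ratio lay between 0.63 and 1.03, where the test cannot pass (smallest p 0.0571 or 0.0952). With diet pairs as a replicate block, 20 and 10 members were called. No member was called for a liver or hippocampus diet under the alternatives run. Without a liver control the 4 diet groups leave no residual degree of freedom. The test of any oil and, chosen after seeing the data, the additive fit of the oils were run, with 0 of 49 members called and 0 to 9 of all probe sets. Psmb8 over Psmb5 was not run, because Psmb5 was not among the members.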
